A study of Homo sapiens with 6 samples.

Results

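The genes described here write, erase and read lysine acetylation on histones and other proteins. They were taken from the gene table by name. The set holds the protein-coding genes on regular chromosomes named as lysine acetyltransferases (KAT), histone deacetylases (HDAC), sirtuins (SIRT), bromodomain proteins (BRD), p160 coactivators (NCOA1, NCOA2, NCOA3), NCOR and SIN3 corepressors, together with HAT1, NAA60, TAF1, BRPF1, BRPF3, BRDT and RCOR1. EP300 and CREBBP were not included. These names matched 46 of the 64253 genes in the table, and the naming rule used no expression values. RNA was sequenced from H69, an immortalised cell line derived from the epithelium of human bile ducts (cholangiocytes), at passages 30 to 32. One group of 3 libraries was exposed for 16 h to recombinant human TGF-beta protein at 10 ng/ml, and the other 3 libraries had vehicle. All libraries came from this single line, and the labels do not say whether replicates were separate cultures. The p-values therefore rest on a spread between libraries that may be technical.

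Acetyltransferases use acetyl-CoA to acetylate lysines. The GNAT enzymes KAT2A (GCN5) and KAT2B (PCAF) do so within SAGA and ATAC complexes, and the MYST enzymes within the NuA4, MOZ/MORF, HBO1, MSL and NSL complexes. Zinc-dependent deacetylases of classes I, II and IV and the NAD-dependent sirtuins remove the mark, and many of the zinc-dependent enzymes work bound to scaffolds such as NCOR1, SIN3A, SIN3B and RCOR1 (CoREST). Bromodomain proteins bind acetyl-lysine, and the BET family is known for bringing the elongation kinase P-TEFb to genes. TGF-beta acts through SMAD proteins, which are known to recruit both acetyltransferases and corepressors.

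The deposited counts summed to between 37205862 and 54160521 reads per library. Levels are given as CPM, counts scaled to library size with TMM factors, on which 1 CPM stood for 35.7 to 56.2 reads. The treatment was visible in genes known to respond to TGF-beta, since FN1 averaged 2646 ± 56.0 CPM in TGF-beta libraries and 683 ± 49.7 CPM in vehicle libraries, and SMAD7 73.1 ± 3.09 CPM and 13.1 ± 2.45 CPM (SD, n = 3 each). Of 12 cholangiocyte markers, 6 (KRT7, KRT19, KRT8, KRT18, EPCAM and SLC4A2) reached 1 RPKM in every library, whereas CFTR and SLC10A2 had no read in any. SOX9 reached 1 RPKM in vehicle libraries only. The summed RPKM of the 12 cholangiocyte markers was 611 to 660 with TGF-beta and 451 to 491 with vehicle. Single markers went both ways. KRT7 (log2 fold change 0.95), KRT8 (0.51) and SLC4A2 (0.90) were called higher, and EPCAM (-0.48) and SOX9 (-1.76) lower. Of the stellate cell or fibroblast markers 1 of 7 (PDGFRB) reached 1 RPKM in every library. Their sums were 8.0 to 8.51 RPKM with TGF-beta and 4.28 to 5.08 RPKM with vehicle. PDGFRB made up most of these sums, at 7.56 to 8.12 RPKM and 3.66 to 4.43 RPKM (log2 fold change 1.02, called higher). PDGFRA (-0.72) and RGS5 (-0.47) were called lower, and DES and LUM were at or near 0. Of the hepatocyte markers 1 of 6 (SERPINA1) reached 1 RPKM in every library. The hepatocyte sums were 6.07 to 6.24 RPKM with TGF-beta and 5.34 to 5.57 RPKM with vehicle, and ALB was at or near 0. Leukocyte markers reached it in 1 of 5 (CD68), with sums of 2.23 to 2.55 RPKM with TGF-beta and 3.23 to 3.37 RPKM with vehicle, CD14 being lower (log2 fold change -1.14) and PTPRC at or near 0. Endothelial markers reached it in 0 of 4, with sums of 0.640 to 0.741 RPKM with TGF-beta and 1.33 to 1.64 RPKM with vehicle. KDR made up most of that sum, at 0.576 to 0.691 RPKM and 1.21 to 1.56 RPKM (-0.99, called lower), and CDH5 was near 0. The part of these marker differences in the results was not tested. Vehicle replicate 1 stood apart on the second principal component of all genes (36.6, against -14.9 and -18.7 for vehicle replicates 2 and 3).

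Promoter windows are shown for 4 members whose transcripts are taken up below. These are KAT2B and KAT2A, near-equivalent GNAT paralogs whose ratio changed, HDAC7, the deacetylase with the largest rise, and SIRT5, a mitochondrial sirtuin that fell. The windows are RefSeq sequence of GRCh38.p14, 300 bases long, from 250 bases before to 50 bases after the RefSeq start, and 39 of the 46 members had one. Capitals mark the SMAD element CAGAC, which reads GTCTG on the other strand. They also mark the E-box CAGGTG that SNAI and ZEB repressors bind, with its reverse complement CACCTG, and the GC box GGGCGG with its reverse complement CCGCCC.
KAT2B, chr3:20040196-20040495, + strand: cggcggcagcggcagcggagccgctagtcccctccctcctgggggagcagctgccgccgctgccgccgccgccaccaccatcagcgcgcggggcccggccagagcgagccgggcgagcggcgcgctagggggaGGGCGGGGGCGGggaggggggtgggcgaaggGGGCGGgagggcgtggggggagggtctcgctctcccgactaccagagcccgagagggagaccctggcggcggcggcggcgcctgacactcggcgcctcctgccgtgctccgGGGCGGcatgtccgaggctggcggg
KAT2A, chr17:42121318-42121617, - strand: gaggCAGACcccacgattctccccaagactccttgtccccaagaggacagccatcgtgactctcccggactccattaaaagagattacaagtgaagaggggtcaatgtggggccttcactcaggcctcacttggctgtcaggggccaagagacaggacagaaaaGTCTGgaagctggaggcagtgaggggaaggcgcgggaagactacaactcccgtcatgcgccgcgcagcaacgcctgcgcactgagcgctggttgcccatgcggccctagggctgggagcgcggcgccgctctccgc
HDAC7, chr12:47819854-47820153, - strand: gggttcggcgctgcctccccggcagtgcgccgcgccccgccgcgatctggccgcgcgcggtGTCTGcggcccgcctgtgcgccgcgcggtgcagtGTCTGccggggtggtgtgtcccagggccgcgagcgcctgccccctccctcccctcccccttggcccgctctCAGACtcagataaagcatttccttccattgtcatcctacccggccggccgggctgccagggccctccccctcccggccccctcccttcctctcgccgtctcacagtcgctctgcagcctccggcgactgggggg
SIRT5, chr6:13574279-13574578, + strand: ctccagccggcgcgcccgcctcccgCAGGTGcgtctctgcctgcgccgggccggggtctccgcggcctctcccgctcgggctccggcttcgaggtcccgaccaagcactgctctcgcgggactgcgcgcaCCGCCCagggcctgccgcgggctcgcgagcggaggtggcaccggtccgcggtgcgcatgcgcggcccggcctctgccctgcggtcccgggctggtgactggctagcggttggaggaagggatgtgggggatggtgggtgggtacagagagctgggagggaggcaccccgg
The KAT2B window held 4 GC boxes and 0 SMAD elements in a GC content of 80.3%. In the KAT2A window there were 2 SMAD elements and 0 GC boxes at 62.0% GC. The HDAC7 window held 3 SMAD elements, and the SIRT5 window 1 E-box and 1 GC box. The SMAD element occurred in 45.3% of all 34943 RefSeq windows of this length, the E-box in 20.6% and the GC box in 44.9%, searched on both strands. The SMAD palindrome GTCTAGAC (0.203% of windows) and the AP-1 site TGANTCA (7.72%) were in none of the 4. The palindrome shares the letters GTCT with the SMAD element, and the other motifs share no stretch with each other in these windows. The RefSeq start of HDAC7 lay 13229 bases, and that of KAT2B 423 bases, inside the gene's start in the table.

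TGF-beta changed the transcripts of this machinery by small amounts, with KAT2B standing out in size. Of the 45 members tested, TGF-beta raised 9 and lowered 13 at a Benjamini-Hochberg adjusted p under 0.05 (edgeR quasi-likelihood test), and 23 did not pass. Calls were made for 48.9% of members, beside 40.1% of all 20992 genes tested (19.7% higher and 20.4% lower) and 48.2% of the genes averaging 10 CPM or more (25.4% higher and 22.8% lower), so the share of members called lay near the background. The 3 TGF-beta libraries lay all above or all below the 3 vehicle libraries in 26 members, against 52.3% of all genes. KAT2B and SIRT4 were called lower by at least 1.5-fold, a size reached with a call in either direction by 16.4% of all genes and 11.1% of those with at least 10 CPM. The median log2 fold change of the members was -0.05 (all genes -0.01), and the median of its absolute size was 0.16 (all genes 0.22; genes with at least 10 CPM 0.16). With library totals in place of TMM scaling, the median of all genes moved to -0.14, all genes split into 2698 higher and 7282 lower, and members into 7 higher and 21 lower. Without vehicle replicate 1, 12 members were called higher and 20 lower, beside 5428 and 5556 of the 21781 genes then tested. In these bulk samples fewer cells carrying a transcript and less RNA per cell cannot be told apart. BRDT, the testis BET protein, had 0 reads in every TGF-beta library, and 2, 0 and 1 reads in the vehicle libraries, and was not tested.

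**Figure D1:**
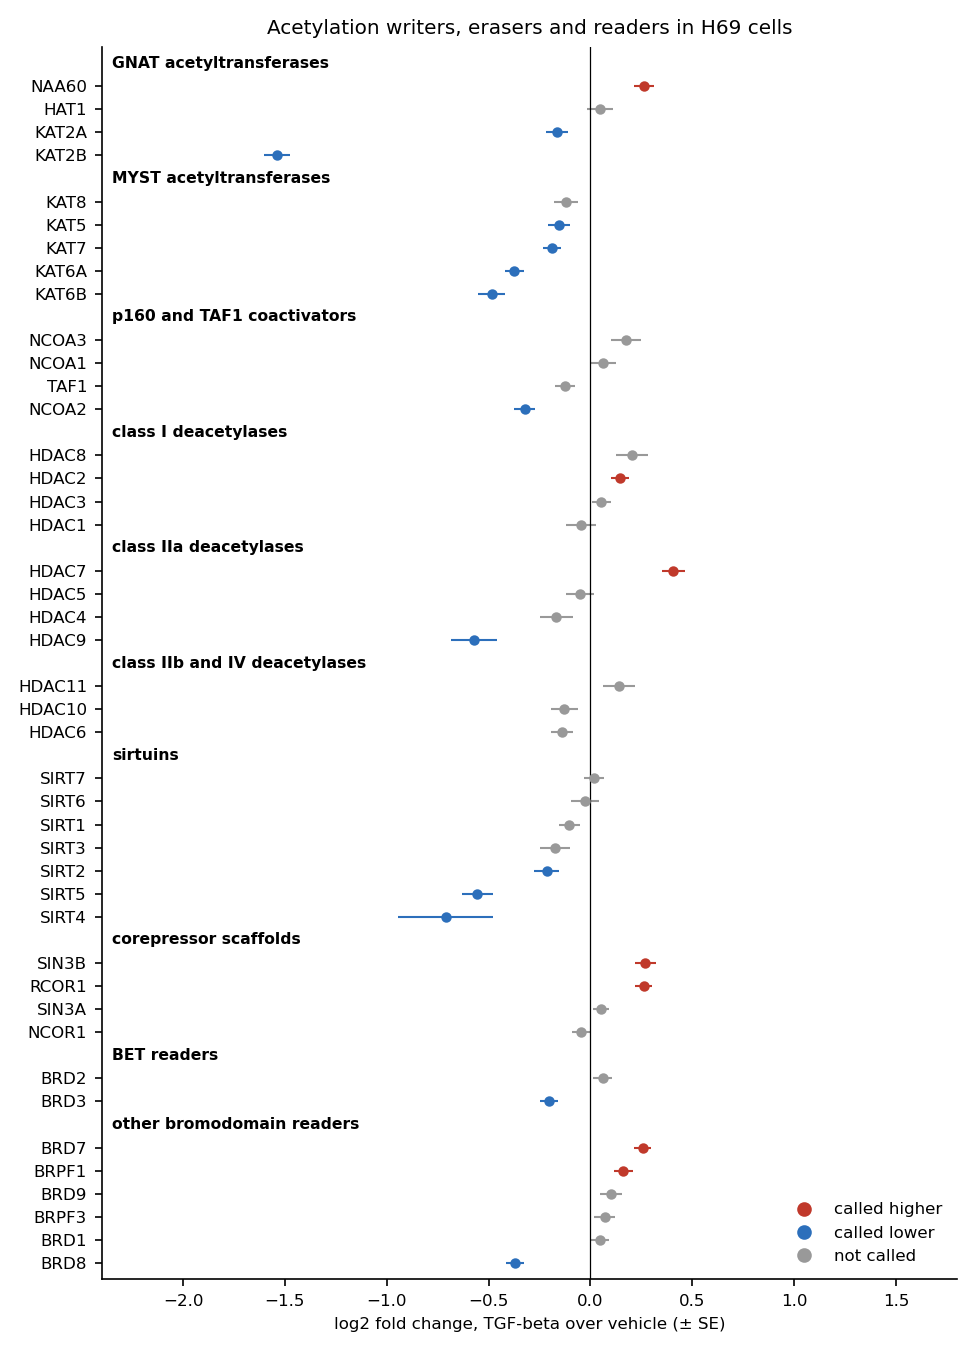
Log2 fold change (TGF-beta over vehicle, with its standard error, horizontal axis) of 43 of the members tested, grouped by role down the page and coloured by call. KAT2B at -1.54 lies farthest from 0, and the 5 MYST enzymes all lie below 0.

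Among the GNAT acetyltransferases, KAT2B fell, NAA60 rose, KAT2A was slightly lower and HAT1 did not pass. KAT2B (ENSG00000114166, chr3:20040023-20154404 on hg38) had 13.7, 12.2 and 13.6 CPM in the TGF-beta libraries, and 39.7, 37.6 and 37.6 CPM in the vehicle libraries. All TGF-beta values lay far below all vehicle values. Its mean was 13.2 ± 0.814 CPM with TGF-beta and 38.3 ± 1.24 CPM with vehicle, a log2 fold change of -1.54 (SE 0.06, adjusted p = 3.18e-08), the largest change of any member and larger than that of 96.1% of all genes tested. Vehicle libraries thus held 2.91 times as much of it.

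KAT2A, its close paralog, had 77.3, 79.4 and 81.8 CPM in TGF-beta libraries, against 82.4, 90.2 and 94.3 CPM in vehicle libraries. The groups did not overlap, but the lowest vehicle library lay next to the highest TGF-beta library. The log2 fold change was -0.16 (SE 0.05, adjusted p = 0.037). This call was lost when any library other than vehicle replicate 1 was left out (adjusted p 0.0651 to 0.145) and with DESeq2 (adjusted p = 0.0771). KAT2A also shares 10.7% of its exon bases with CTD-2132N18.3 on the same strand (log2 fold change 0.19), and the part of those reads was not tested. NAA60, an acetyltransferase of the Golgi that also acts on histone H4, had 56.7, 61.0 and 62.6 CPM in TGF-beta libraries and 48.9, 50.8 and 50.7 CPM in vehicle libraries. Its values did not overlap, with a log2 fold change of 0.26 (SE 0.05, adjusted p = 0.00192). HAT1, which acetylates newly made histone H4, averaged 82.0 ± 2.04 CPM with TGF-beta and 79.5 ± 7.59 CPM with vehicle.

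All 5 MYST enzymes had lower means with TGF-beta, and 4 of the 5 passed the test. KAT6B (MORF) had 29.1, 26.6 and 25.7 CPM in TGF-beta libraries, against 35.1, 40.6 and 38.3 CPM in vehicle libraries, a log2 fold change of -0.49 (SE 0.07, adjusted p = 0.000285). Its TGF-beta libraries were all below its vehicle libraries. KAT6A (MOZ), the other catalytic subunit of that complex, averaged 86.7 ± 1.6 CPM with TGF-beta and 112 ± 5.69 CPM with vehicle (log2 fold change -0.37). The HBO1 enzyme KAT7 averaged 65.1 ± 1.93 CPM and 74.2 ± 2.01 CPM (-0.19). KAT5 (TIP60), the NuA4 enzyme, averaged 47.5 ± 1.48 CPM with TGF-beta and 52.8 ± 2.82 CPM with vehicle (-0.15, adjusted p = 0.0388). The KAT5 call was lost with DESeq2 (adjusted p = 0.104) and when any library other than vehicle replicate 1 was left out (0.0569 to 0.167), and 38.6% of its exon bases overlap RNASEH2C on the opposite strand (0.04). KAT8 (MOF) averaged 18.3 ± 0.424 CPM with TGF-beta and 19.9 ± 0.840 CPM with vehicle and did not pass, although its libraries did not overlap. Summed per kilobase of gene length, the MYST enzymes came to 31.8 ± 0.725 CPM per kb with TGF-beta and 37.4 ± 0.918 CPM per kb with vehicle, a ratio of 0.852 with no overlap between libraries. Such sums did not overlap either for GNAT enzymes (ratio 0.905), sirtuins (0.915) and class IIa deacetylases (1.23), and 52.3% of all single genes did not overlap.

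Of the p160 coactivators, which bind nuclear receptors and bring acetyltransferases to them, and TAF1, the large TFIID subunit with paired bromodomains, 1 of 4 was lower. NCOA2 had 31.0, 33.7 and 32.6 CPM in TGF-beta libraries and 40.0, 42.0 and 39.6 CPM in vehicle libraries, groups that did not overlap. Its log2 fold change was -0.32 (SE 0.05, adjusted p = 0.00066). NCOA1 averaged 16.0 ± 0.455 CPM with TGF-beta and 15.3 ± 0.831 CPM with vehicle. NCOA3 averaged 144 ± 5.0 CPM and 127 ± 14.3 CPM, where vehicle replicate 1 (144 CPM) lay within the TGF-beta range and the other vehicle libraries (121 and 117 CPM) below it.

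Among the class I deacetylases, HDAC2 was slightly higher and the others did not pass. HDAC1, HDAC2 and HDAC3 are catalytic subunits of the NuRD, SIN3, CoREST and NCoR complexes. HDAC1 had 85.1, 89.9 and 90.6 CPM in TGF-beta libraries, against 80.2, 94.6 and 99.3 CPM in vehicle libraries. Its vehicle libraries spread on both sides of the TGF-beta values (log2 fold change -0.05, SE 0.07, adjusted p = 0.655). HDAC2 had 171, 166 and 160 CPM with TGF-beta and 154, 149 and 146 CPM with vehicle, groups that did not overlap, with a log2 fold change of 0.15 (SE 0.04, adjusted p = 0.0218). That value was 0.02 with library totals alone and 0.05 with limma on log2(RPKM + 1), neither called, and the call was also lost without replicate 1 or 2 of TGF-beta or 2 or 3 of vehicle (log2 fold changes of 0.12 to 0.15). HDAC3, the NCoR enzyme, had 67.6, 71.8 and 71.4 CPM in TGF-beta libraries and 64.8, 68.9 and 69.6 CPM in vehicle libraries, which overlapped (0.05, SE 0.05, adjusted p = 0.411). HDAC8, which deacetylates cohesin, averaged 19.9 ± 1.06 CPM with TGF-beta and 17.3 ± 1.57 CPM with vehicle (0.20, adjusted p = 0.0554).

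Class IIa deacetylases shuttle between cytoplasm and nucleus and repress MEF2 factors. Within this class 1 of 4 rose and 1 fell. HDAC7 (chr12:47782722-47833132), whose promoter is printed above, had 202, 211 and 223 CPM in TGF-beta libraries, against 149, 164 and 167 CPM in vehicle libraries. Every TGF-beta library was higher, and the log2 fold change was 0.41 (SE 0.06, adjusted p = 0.000222). HDAC9 had 2.24, 2.45 and 2.30 CPM with TGF-beta and 3.60, 3.56 and 3.26 CPM with vehicle, with every TGF-beta library lower (-0.57, SE 0.11, adjusted p = 0.00243). These HDAC9 values rest on 80 to 111 reads in TGF-beta libraries and 151 to 200 reads in vehicle libraries. HDAC4 averaged 11.3 ± 0.312 CPM with TGF-beta and 12.7 ± 1.27 CPM with vehicle, HDAC5 28.1 ± 2.03 CPM and 29.1 ± 1.81 CPM, and neither passed. In class IIb and class IV, 0 of 3 passed, with log2 fold changes of -0.14 for HDAC6, the tubulin deacetylase, -0.13 for HDAC10, a polyamine deacetylase, and 0.14 for HDAC11. Exons of HDAC10 overlap MAPK12 on the same strand over 55.8% of their bases (MAPK12 log2 fold change -0.27).

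Among the sirtuins, 3 of 7 fell, 2 of them mitochondrial. SIRT5, which removes succinyl and related groups from lysines in mitochondria, had 8.06, 8.82 and 7.87 CPM in TGF-beta libraries and 12.7, 12 and 11.8 CPM in vehicle libraries. No library overlapped, and the log2 fold change was -0.56 (SE 0.08, adjusted p = 0.000216). SIRT4, another mitochondrial sirtuin, had 15, 31 and 31 reads with TGF-beta and 39, 60 and 59 reads with vehicle, which were 0.420, 0.684 and 0.80 CPM against 0.930, 1.07 and 1.14 CPM. The libraries did not overlap, but the log2 fold change of -0.71 (SE 0.23, adjusted p = 0.0331) was lost with DESeq2 (adjusted p = 0.111) and without replicate 1 or 2 of TGF-beta or 2 or 3 of vehicle (0.0784 to 0.104). The cytoplasmic SIRT2 averaged 34.2 ± 2.89 CPM with TGF-beta and 39.7 ± 1.02 CPM with vehicle (-0.22, adjusted p = 0.020), a call lost without replicate 1 or 2 of TGF-beta or 2 or 3 of vehicle (0.0607 to 0.0803). SIRT1, the nuclear sirtuin, had 40.4, 38.2 and 37.5 CPM with TGF-beta and 42.8, 42.6 and 39.2 CPM with vehicle, which overlapped (-0.10, SE 0.05, adjusted p = 0.156). SIRT3, the main mitochondrial deacetylase, averaged 10.1 ± 0.559 CPM with TGF-beta and 11.4 ± 0.424 CPM with vehicle without a call. SIRT6 and SIRT7, at -0.03 and 0.02, did not pass.

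Among the corepressor scaffolds, SIN3B and RCOR1 rose, and NCOR1 and SIN3A did not pass. NCOR1, which recruits HDAC3 to nuclear receptors, had 145, 147 and 144 CPM with TGF-beta and 153, 155 and 143 CPM with vehicle, and these overlapped (-0.05, SE 0.04, adjusted p = 0.446). RCOR1, the CoREST scaffold, averaged 104 ± 2.69 CPM with TGF-beta and 86.7 ± 1.8 CPM with vehicle (0.26). SIN3B averaged 74.2 ± 2.62 CPM and 61.5 ± 3.56 CPM (0.27), and SIN3A 120 ± 0.743 CPM and 116 ± 2.75 CPM (0.05, not called).

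**Figure D2:**
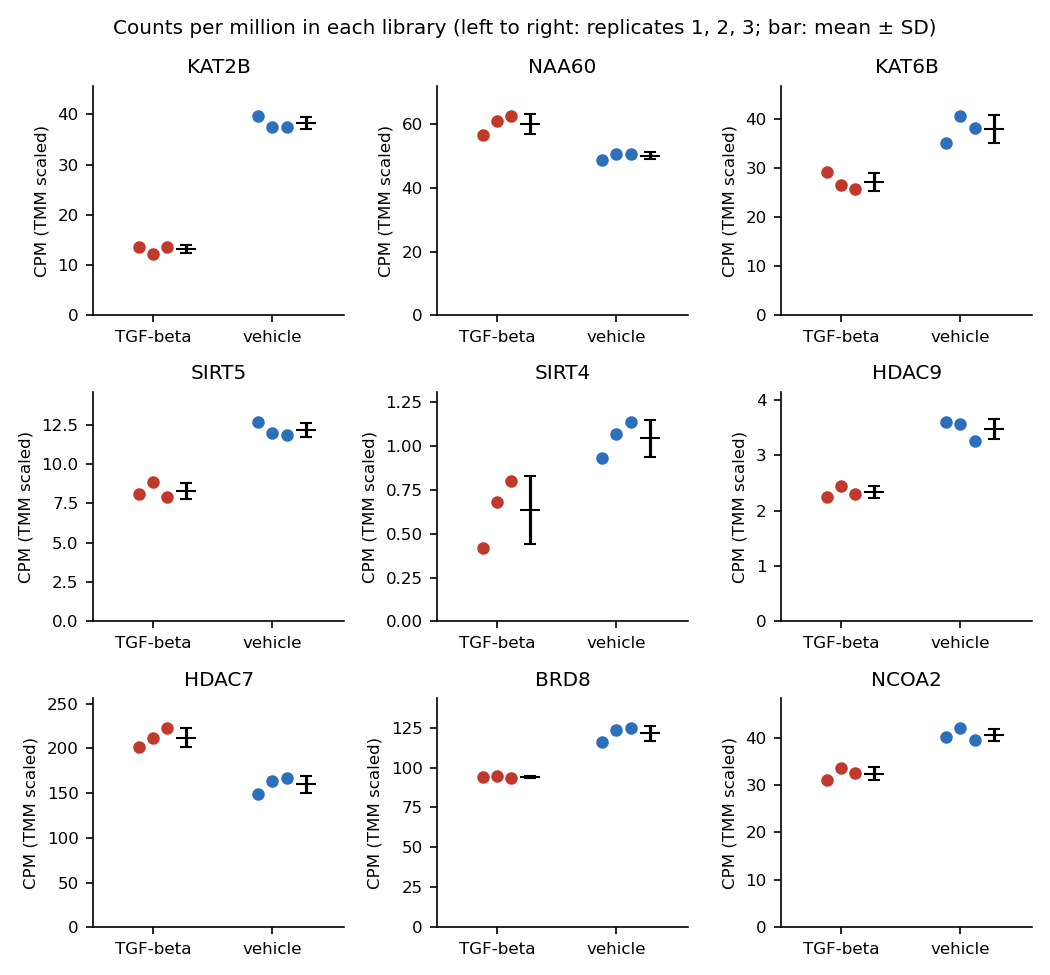
CPM (vertical axes, starting at 0) in each of the 3 TGF-beta libraries (left, red) and the 3 vehicle libraries (right, blue) for 9 members, with the mean ± SD as a bar. The groups do not overlap in any of the 9 panels, and KAT2B shows the widest gap relative to its level.

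Of the BET readers described here, BRD3 fell and BRD2 did not pass. BRD3 had 80.9, 82.3 and 80.4 CPM with TGF-beta and 97.0, 94.2 and 89.4 CPM with vehicle, all TGF-beta values being lower (-0.20, SE 0.04, adjusted p = 0.00454). LINC00094 overlaps 18.6% of the BRD3 exon bases on the opposite strand (-0.01). BRD2 had 232, 232 and 236 CPM with TGF-beta and 210, 227 and 234 CPM with vehicle, which overlapped (0.06, SE 0.05, adjusted p = 0.343).

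Of the other bromodomain readers, 2 of 6 rose and 1 fell. BRD8, a subunit of the NuA4 complex, had 94.1, 94.6 and 93.4 CPM in TGF-beta libraries and 116, 124 and 125 CPM in vehicle libraries. Its TGF-beta libraries were tightly grouped below all vehicle libraries (-0.37, SE 0.04, adjusted p = 8.61e-05). BRD7, a subunit of the PBAF remodelling complex, had 101, 100.02 and 98.8 CPM with TGF-beta and 86.3, 82.3 and 82.7 CPM with vehicle (0.26, SE 0.04, adjusted p = 0.000698). However, ADCY7 on the opposite strand overlaps 42.3% of BRD7's exon bases and had a log2 fold change of 1.59, and its part in the BRD7 count was not tested. BRPF1, a scaffold of the MOZ/MORF complex, averaged 38.3 ± 0.712 CPM with TGF-beta and 34.3 ± 1.01 CPM with vehicle (0.16, adjusted p = 0.0204), a call lost with library totals alone (log2 fold change 0.03), with limma on log2(RPKM + 1) (0.05) and without replicate 2 of TGF-beta or 2 or 3 of vehicle (adjusted p 0.0522 to 0.0956). BRD1 (0.05), BRPF3 (0.07) and BRD9 (0.10), a subunit of the non-canonical BAF complex, did not pass.

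Leaving out vehicle replicate 1 raised the calls among all genes to 5428 higher and 5556 lower of 21781 tested. With all libraries these were 4145 and 4278 of 20992. Alongside this general gain, 10 further members were called. HDAC1 (log2 fold change -0.13), HDAC10 (-0.20), HDAC4 (-0.25), HDAC6 (-0.17), KAT8 (-0.15), SIRT3 (-0.19) and TAF1 (-0.12) were then lower, and HAT1 (0.12), HDAC8 (0.28) and NCOA3 (0.27) higher. HDAC6 also passed without TGF-beta replicate 3 (-0.18). All of these sizes stayed under 1.5-fold.

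Set side by side per kilobase of gene length, the members spanned more than 100-fold in level. BRD2 was highest in both conditions, at 31.8 ± 0.330 CPM per kb with TGF-beta and 30.5 ± 1.68 CPM per kb with vehicle, and HDAC9 was lowest of those tested, at 0.138 ± 0.00644 CPM per kb and 0.206 ± 0.0111 CPM per kb. KAT2B ranked 38 of 45 with TGF-beta and 26 with vehicle, at 2.34 ± 0.144 CPM per kb and 6.79 ± 0.220 CPM per kb. KAT2A, HDAC1 and HDAC7 were at 21.1, 22.3 and 21.3 CPM per kb with TGF-beta, and at 23.6, 23.1 and 16.1 CPM per kb with vehicle.

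**Figure D3:**
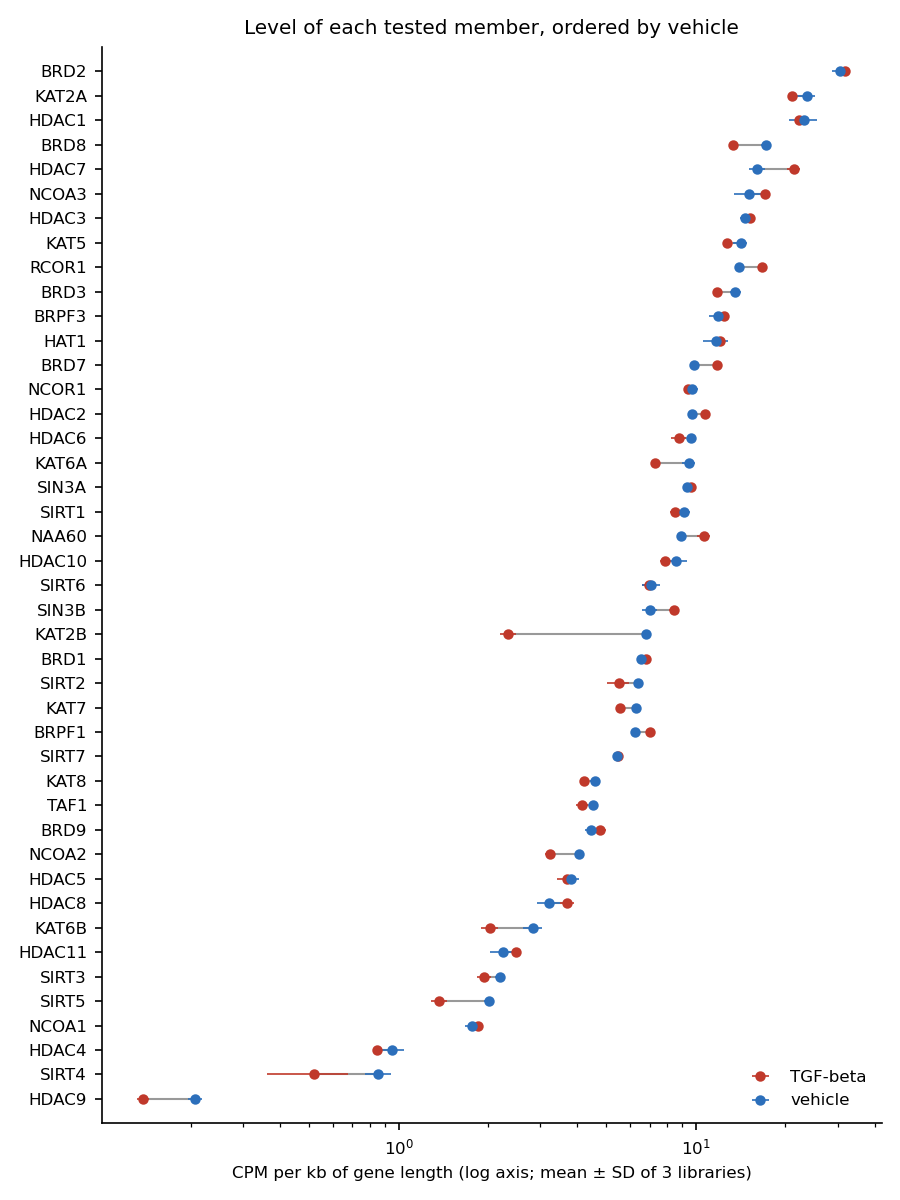
Level of 43 of the members tested in CPM per kilobase of gene length (log axis), as the mean of 3 TGF-beta libraries and of 3 vehicle libraries. KAT2B lies far lower with TGF-beta than with vehicle, and most other pairs of points lie close together.

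Ratios of related members within a library do not depend on the scaling between libraries. The log2 ratio of counts was compared in 24 pairs of paralogs or class partners, of which many share a gene. In 14 of the 24 the TGF-beta ratios lay all above or all below the vehicle ratios, and for each of those the exact two-sided permutation test gave p = 0.1, the smallest that 3 against 3 allows, so no pair could pass 0.05. Single genes did not overlap in 52.3% of all genes tested and 60.0% of those with at least 10 CPM. The share over other pairs of genes was not computed, so the 14 pairs cannot be set against a background. The log2 ratio of KAT2A to KAT2B was 2.50, 2.70 and 2.58 in TGF-beta libraries, against 1.05, 1.26 and 1.33 in vehicle libraries. By RPKM, KAT2A made up 90.0 ± 0.607% of the pair with TGF-beta and 77.6 ± 1.76% with vehicle (SD, n = 3 each). The difference between conditions was 0.99 for HDAC7 to HDAC9, -0.57 for HDAC4 to HDAC7 and -0.50 for NCOA2 to NCOA3. BRD2 to BRD3 differed by 0.27 and SIN3A to SIN3B by -0.22, both without overlap. KAT6A to KAT6B (0.11, exact permutation p = 0.3) and HDAC1 to HDAC2 (-0.19, exact permutation p = 0.3) overlapped between conditions.

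**Figure D4:**
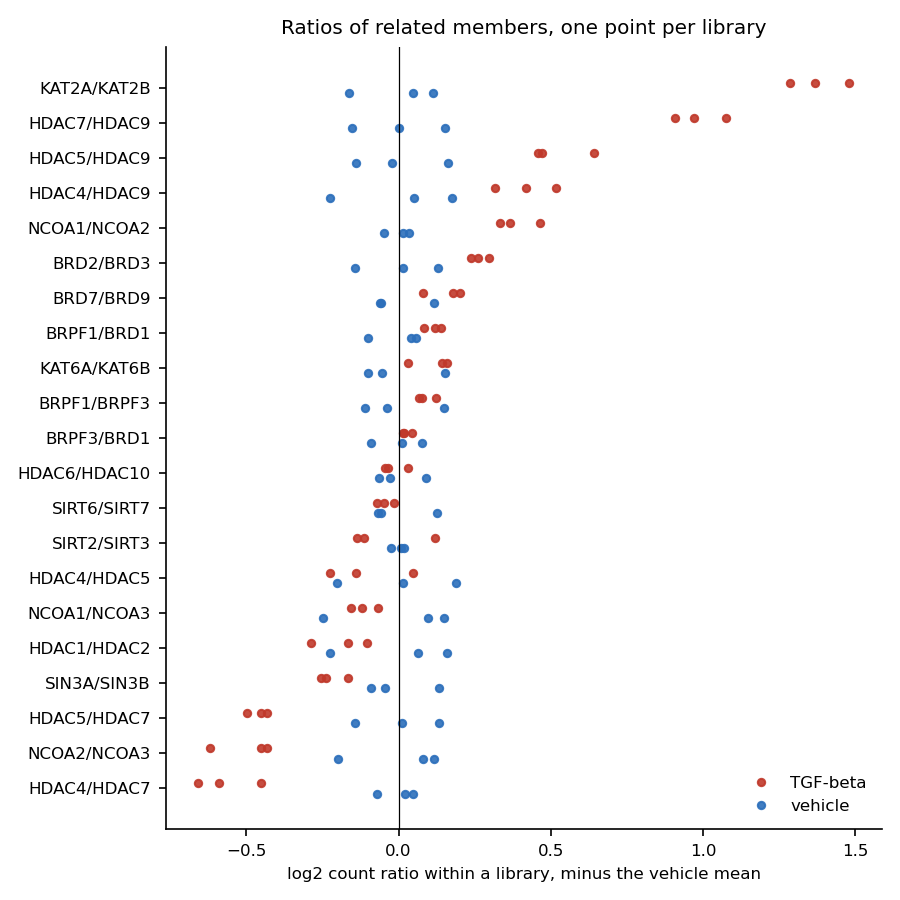
Log2 ratio of the counts of 2 related members within each library, minus its vehicle mean (horizontal axis), for 21 of the pairs, with the 3 TGF-beta libraries above the 3 vehicle libraries in each row. KAT2A/KAT2B shifts up by 1.38, the largest shift of those drawn, and 10 of the 21 rows overlap.

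The members work in complexes with other proteins, and 9 lists of partner genes were examined, of which 143 of 146 genes were tested. Of these, 42.7% were called, beside 40.1% of all genes tested and 48.2% of those averaging 10 CPM or more. By list, the share called ran from 25.0% (SAGA and ATAC) to 66.7% (NuRD). Of the partner genes, 32 were higher and 29 lower, with a median log2 fold change of -0.01, as for all genes. The direction of these counts hangs on the scaling, since library totals alone gave 15 higher and 70 lower. The list of partners of the MYST complexes (NuA4, MOZ, HBO1, MSL and NSL) had 9 higher and 5 lower of 23, but 3 higher and 9 lower with library totals alone. Among them EP400, the NuA4 remodelling ATPase, rose (105 ± 0.289 CPM with TGF-beta and 73.2 ± 4.43 CPM with vehicle, log2 fold change 0.52), and ING5, a histone-binding subunit, fell (-0.27). KANSL1, KANSL2 and KANSL3 of the NSL complex were all among the higher genes. PHF20 of the same complex was called lower (-0.14), and MCRS1 (-0.08) did not pass. In SAGA and ATAC, 2 of 20 rose and 3 fell (0 and 12 with library totals alone), the farthest being ATXN7L3 of the deubiquitinase module (0.24) and KAT14, an ATAC acetyltransferase listed in the table as CSRP2BP (-0.45).

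Of 12 NuRD partners, 7 rose and 1 fell (4 and 2 with library totals alone). The remodelling ATPase CHD3 averaged 126 ± 0.762 CPM with TGF-beta and 97.3 ± 10.4 CPM with vehicle (0.38), while the histone chaperone RBBP7 was slightly lower (-0.11). The SIN3 list had 1 of 13 higher, PHF12 (0.14), and 3 lower, with SAP30 the farthest (-0.50), and 0 and 7 with library totals alone. In the CoREST and NCoR list, 3 of 10 rose and 2 fell (1 and 5 with library totals alone). KDM1A (LSD1), the demethylase of CoREST, had 109, 109 and 108 CPM in TGF-beta libraries and 81.6, 78.5 and 78.0 CPM in vehicle libraries (0.46, adjusted p = 1.03e-05). TBL1X, a subunit of the NCoR complex, had 8.68, 8.89 and 8.82 CPM with TGF-beta and 17.8, 23.5 and 22.8 CPM with vehicle (-1.28, adjusted p = 6.06e-06).

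Of 13 genes of P-TEFb and its surroundings, 2 rose and 4 fell (1 and 7 with library totals alone). CDK9, the P-TEFb kinase, was higher (68.2 ± 1.69 CPM with TGF-beta and 55.1 ± 1.56 CPM with vehicle, 0.31). The P-TEFb inhibitors HEXIM1 (68.5 ± 1.0 CPM against 97.9 ± 5.31 CPM, -0.52) and HEXIM2 (6.90 ± 0.421 CPM against 12.2 ± 2.14 CPM, -0.82) were lower with TGF-beta than with vehicle, as was MEPCE (-0.50), which caps and stabilises the 7SK RNA that holds them. HEXIM1 and MEPCE were named after their values were seen. Among 27 further bromodomain and YEATS readers, 3 rose and 5 fell (3 and 14 with library totals alone), with BAZ2B at 0.70 and SMARCA2 (BRM), a BAF ATPase, at -0.78.

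Of 13 targets and kinases of class IIa deacetylases, 4 rose and 2 fell (3 and 7 with library totals alone). SIK1, a kinase that phosphorylates class IIa enzymes, had 7.25, 6.95 and 6.81 CPM in TGF-beta libraries and 2.91, 2.24 and 1.45 CPM in vehicle libraries (1.68, adjusted p = 0.000277). CAMK2D, another such kinase, had 12.4, 12.8 and 12.1 CPM with TGF-beta and 24.2, 38.0 and 35.2 CPM with vehicle (-1.39, adjusted p = 0.00137). In the list on supply of acetyl-CoA and NAD, 1 of 12 rose and 4 fell (0 and 7 with library totals alone). ACSS1, the mitochondrial acetyl-CoA synthetase, had 8.56, 7.81 and 9.08 CPM with TGF-beta and 77.4, 36.6 and 38.0 CPM with vehicle (-2.58, SE 0.40, adjusted p = 0.00795). Vehicle replicate 1 was far above the other vehicle libraries for ACSS1, and without it the log2 fold change was -2.14. ACAT2, a thiolase of the cytosol, rose by 0.13 on the log2 scale. The small changes of ACAT2, PHF12 and ATXN7L3 lost their call with library totals alone (0.01, 0.01 and 0.12), and RBBP7 did with DESeq2 (-0.10). Calls of ACAT2, ING5, PHF12 and RBBP7 were also lost on leaving out any of 4 or 5 of the 6 libraries, at log2 fold changes of the same sign.

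**Figure D5:**
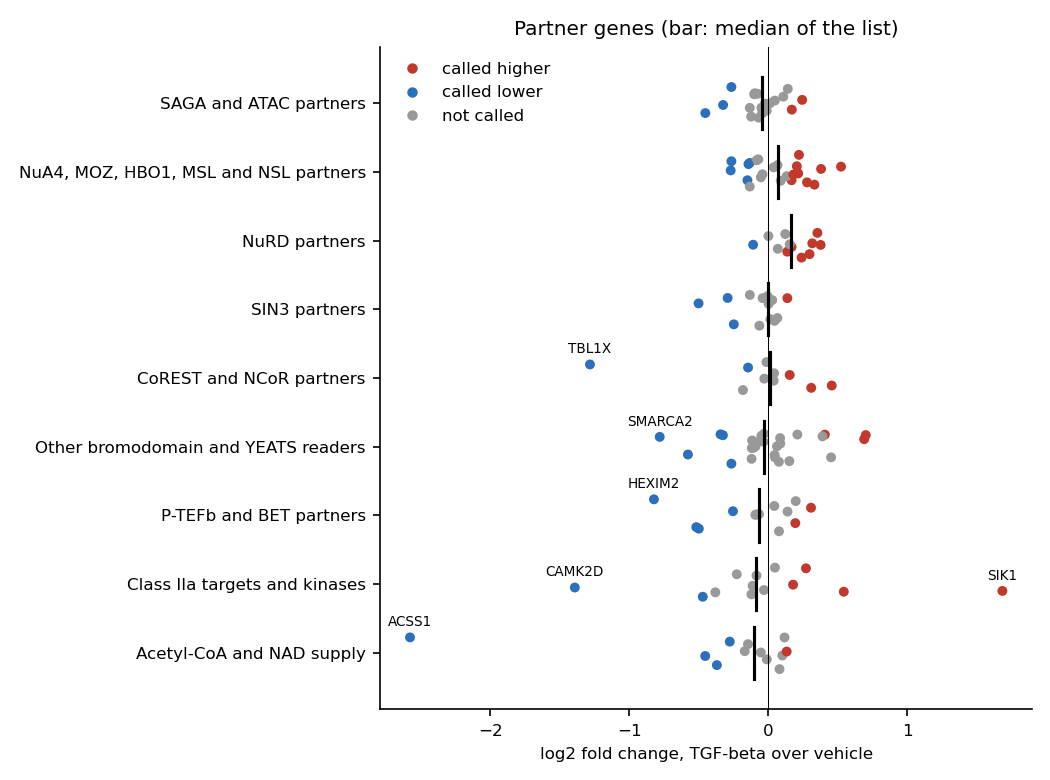
Log2 fold change (TGF-beta over vehicle, horizontal axis) of 143 partner genes in 9 lists, coloured by call, with the median of each list as a bar. ACSS1, CAMK2D and TBL1X lie farthest below 0 and SIK1 farthest above, and the medians of the lists lie between -0.10 and 0.16.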

How the data were processed

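RNA sequencing of 6 H69 libraries was analysed from 1 table of gene counts and RPKM. Per the submitters' processing notes, the tools were bcl2fastq, STAR 2.6.1 and featureCounts of Subread, with genome build hg38. The authors deposited raw counts, which are whole reads per gene. The RPKM columns are, per the file headers, RPKM by the authors, and were used for marker levels, pair shares and 2 alternatives. Worked back from counts and lengths, they were scaled to 86252800 to 128763000 reads per library, of which the counts made up 41.9 to 43.3%. RPKM therefore lie below CPM per kb (KAT2B with TGF-beta 0.967 against 2.34), and 1 RPKM is a stricter marker threshold than 1 CPM per kb. The annotation release, strand setting and handling of multi-mapped reads are not given in the sources used here, so reads of overlapping genes may be split or shared.

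The counts were fitted with edgeR 4.0.16 under R 4.3.3 (TMM, filterByExpr with a minimum count of 10, robust quasi-likelihood fit of treatment, no block), adjusted by Benjamini-Hochberg over the 20992 genes passing the filter and called at an adjusted p under 0.05. The biological coefficient of variation was 7.88%. A standard error is the absolute log2 fold change over the root of the F statistic. CPM are TMM scaled, and levels between genes were compared per kilobase of the length in the table. Of 6 further rows named BRD2 on alternate haplotypes, none held a read, and they were left out. Exon overlaps were counted in GENCODE 29 where the other gene had at least 10% of a member's reads, which held for 15 members. The scripts were tested on simulated data. Counts cover all members tested, but the values of some genes are not reported here. The members, roles, pairs and partner lists were chosen with earlier results of these data known. Library values are given for the called member with the largest rise and fall in each role, for called members of at least 0.58 (log2), and for HDAC1, HDAC2, HDAC3, KAT2A, KAT2B, BRD2, SIRT1 and NCOR1. Those of SIRT5 were added after its values were seen. In each partner list the called genes with the largest rise and fall are named. KANSL1, KANSL2, KANSL3, PHF20, MCRS1, HEXIM1, MEPCE, CCNT1, CCNT2, AFF1 and LARP7 were added after their values were seen. The fit was repeated with RLE factors, with library totals alone, without a filter, with a minimum of 1 CPM in 3 samples, with the replicate numbers as a block, and without each library in turn. DESeq2 1.42.0 was run on the counts, and limma 3.58.1 on log2(RPKM + 1) and log2(RPKM + 0.1), computed from the deposited RPKM for genes averaging 0.5 RPKM or more.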

Additional observations from a re-analysis of the deposited data

How the results depend on the processing

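Of the 22 called members, 16 kept their direction and call under each of the 14 alternatives in which they were tested (HDAC9 was below the RPKM minimum) and 6 (BRPF1, HDAC2, KAT2A, KAT5, SIRT2 and SIRT4) lost the call under at least 1. Library totals alone gave 2698 genes higher and 7282 lower, 21 members lower, and 15 partner genes higher and 70 lower. Genes higher were 2419 with limma on log2(RPKM + 1) and 2411 on log2(RPKM + 0.1), and partner genes higher 16 in both. Leaving out 1 library gave 3204 to 5428 genes higher and 3055 to 5556 lower, 7 to 12 members higher and 9 to 20 lower, 24 to 48 partner genes higher and 20 to 38 lower, and 14 to 19 pairs without overlap. The cause was not tested. The count of pairs could not fall, because a pair without overlap stays so when a library is left out. Of the uncalled members, 12 changed sign. With library totals alone, limma on log2(RPKM + 1) and on log2(RPKM + 0.1), the values were -0.081, -0.030 and -0.039 for BRD1, -0.066, -0.023 and -0.024 for BRD2, -0.056, -0.012 and -0.014 for BRPF3, -0.082, -0.032 and -0.037 for HAT1, -0.074, -0.029 and -0.033 for HDAC3, -0.063, -0.0096 and -0.019 for NCOA1, -0.075, -0.028 and -0.034 for SIN3A, and -0.11, -0.048 and -0.066 for SIRT7. BRD9 was -0.024 with library totals alone. Over the fits leaving out 1 library, HAT1 ranged from -0.0076 to 0.12, HDAC1 from -0.13 to 0.018, HDAC5 from -0.10 to 0.0026, SIRT6 from -0.066 to 0.034 (0.015 without TGF-beta replicate 1) and SIRT7 from -0.0055 to 0.048. Same-numbered libraries did not deviate together (correlations of 0.0652, 0.0623 and 0.0129), so the numbers were not taken as pairs. With the replicate block, 4247 genes were higher and 4330 lower, 11 members higher and 15 lower. TGF-beta replicates 1 and 2 correlated best with their own number, and replicate 3 with vehicle replicate 2 (0.0136). Depth limits SIRT4, whose libraries hold 15 to 60 reads.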
